A study of Mus musculus with 32 samples.

Results

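The features described here are the 290 of 56459 in a table of read counts that stood out in the VIP population of mouse cortex, a set referred to as the VIP-enriched features. They were chosen on measured levels. The unit is CPM, a library's counts scaled to a fixed total. CPM values were taken as a library's count for a feature over the library's total times 1000000, and a feature was kept when it reached 1 CPM in all 4 VIP libraries and its VIP mean was at least 3 times the mean of each of the other 7 groups. The set makes up 0.514% of the features, and 1.96% of the 14804 features that reached 1 CPM in all 4 VIP libraries. The levels in VIP cortex and their ratios to the other groups therefore describe the choice and were not tested.

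Cortical interneurons are inhibitory, GABA-releasing neurons that fall into a few large classes, and the class marked by vasoactive intestinal peptide (VIP) is one of them, beside those marked by parvalbumin (PV) and somatostatin (SST). VIP interneurons sit mostly in the upper layers of cortex and are known for contacting other interneurons, SST cells above all, so that their firing releases nearby excitatory neurons from inhibition. RNA bound to ribosomes is the fraction of a cell's RNA associated with the translation machinery, and isolating it from a tagged population gives a profile of that population within intact tissue.

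The series profiled RNA bound to ribosomes in 8 groups of 4 libraries, 32 in all. Cortex supplied groups titled CamK, Scnn, PV, SST and VIP, and hippocampus supplied groups titled CamK, Grik and SST. By the usual meaning of these names, CamK, Scnn and Grik are excitatory (glutamatergic) populations and PV, SST and VIP are inhibitory (GABAergic). The genotype of all 32 libraries is labelled WT. The labels give no driver line, age, sex, treatment or pooling of animals, and nothing says that the replicates came from separate animals, so the p-values measure only the spread between these libraries, which may be technical. In bulk RNA of this kind, more cells of a type and more RNA per cell cannot be told apart.

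The titles fall into 2 series, one of them with a W before the replicate number. VIP cortex carries the W, as do the 3 hippocampal groups, and the other 4 cortical groups do not. VIP cortex thus differs from each other group in title series or in region. Against the other cortical groups the VIP population cannot be told apart from the title series, and against the hippocampal groups it cannot be told apart from region. Libraries held between 100158438 and 114153919 counts, except SST hippocampus replicate 1 with 186505391. The features carry identifiers that the files do not pair with gene names, and none of the identifiers occurred in the reference tables used here. The populations could therefore not be checked against marker genes, no feature is given a gene name or function, and no sequence is shown.

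Most VIP-enriched features were modest in level. The VIP mean ranged from 1.11 to 3259 CPM with a median of 6.37 CPM and quartiles at 2.44 and 30.8 CPM, against a median of 19.5 CPM over the 14804 features. A VIP mean of at least 10 CPM was found for 122 features, of at least 100 CPM for 40 and of at least 1000 CPM for 6. Per length, using the deposited feature length, the median VIP level was 4.18 CPM per kb in the set and 13.8 CPM per kb in the 14804. The features themselves had a median deposited length of 1777, against 1494 for the 14804, with quartiles of 1102 and 3102 against 911 and 2577.

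Many of the 290 lay close to the 3-fold limit and a few lay far above it. The ratio of the VIP mean to the highest other group had a median of 4.02, and it was under 4 for 142 features. It reached 5 for 96 features, 10 for 38, 30 for 20 and 100 for 7, up to 544. In 262 features the lowest VIP library was above each of the 28 other libraries, which the rule itself makes likely. All other group means were under 1 CPM for 127 features, and 97 of these were under 1 CPM in all 28 other libraries. At the other end, 50 features were at 1 CPM or more in every group.

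**Figure D1:**
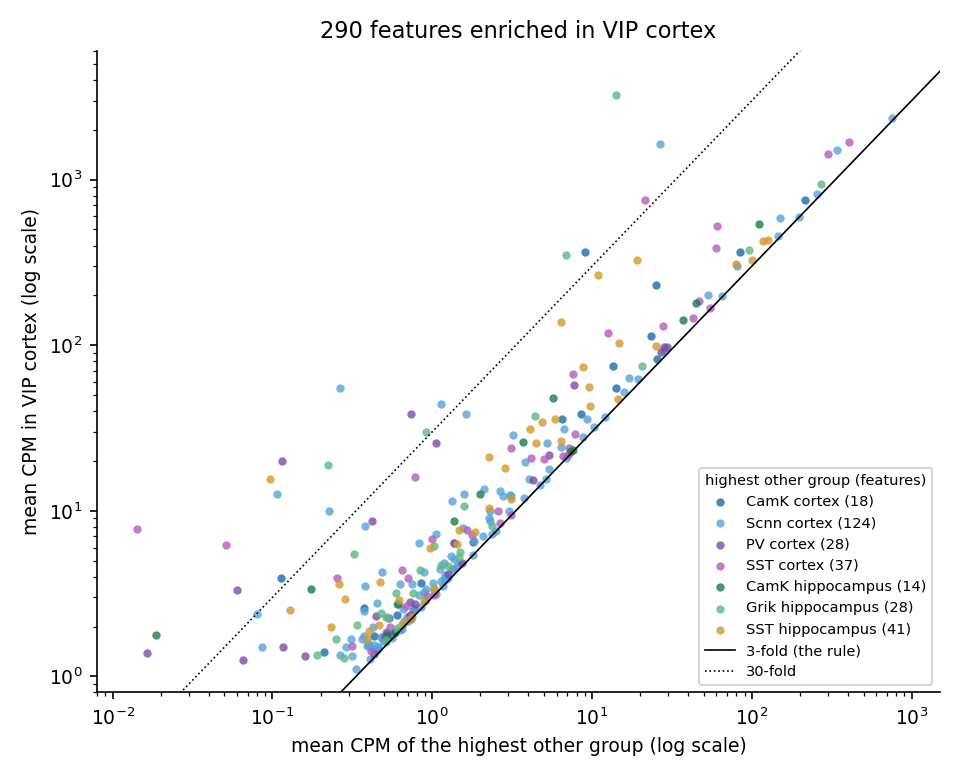
Mean CPM in VIP cortex (vertical, log scale) against mean CPM of the highest other group (horizontal, log scale) for the 290 features, coloured by which group that is. The solid line is the 3-fold limit of the rule and the dotted line is 30-fold, which 20 features reach or pass.

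GSMG0003738 had the highest VIP mean, with 1593, 3337, 3563 and 4543 CPM in the 4 VIP libraries. It was far lower in the other groups, with means of 14.2 CPM in Grik hippocampus, 7.62 CPM in SST cortex, 7.35 CPM in Scnn cortex, 3.59 CPM in PV cortex, 1.23 CPM in CamK cortex, 0.783 CPM in SST hippocampus and 0.477 CPM in CamK hippocampus. No other library exceeded 22.3 CPM, and the VIP mean was 229 times the Grik mean. Per length it was also the highest of the set, at 2384 CPM per kb.

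GSMG0041514 was next in VIP mean, at 1152, 2202, 4531 and 1564 CPM, but lay just above the limit with a ratio of 3.14. Its Scnn cortex libraries held 370, 739, 765 and 1135 CPM, the last only slightly below the lowest VIP library, and PV cortex reached 727 CPM. The feature was thus abundant in Scnn and PV cortex as well, and VIP replicate 3 was well above the other VIP libraries.

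The largest ratio, 544, belonged to GSMG0021962 at 7.26, 9.39, 6.27 and 8.03 CPM in VIP cortex, which are 666 to 1000 counts a library. Elsewhere it was at 0 in 22 of 28 libraries, and the other 6 libraries held 22.6 counts in all. The ratio rests on 6 counts in a single SST cortex library and has little precision. In Grik hippocampus the count was 0 in all 4 libraries. If each count is an independent event, this allows up to 0.00687 CPM over the group (3 counts, counting error only). VIP would then be at least 1126-fold higher. However, the counts in Scnn, PV and SST cortex were 4, 2 and 6, all even. Counts this low may therefore not be independent events, and the true bound may be lower.

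GSMG0038910 had the next highest level per length, 1583 CPM per kb, and behaved otherwise. It stood at 999, 1031, 847 and 898 CPM in VIP cortex, 263 to 277 CPM in Grik hippocampus, 107 to 136 CPM in SST cortex, and a mean of 1.42 CPM in PV cortex. VIP, Grik and SST cortex libraries did not overlap with one another.

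The edge of the set was narrow. Just inside, GSMG0001288 (VIP mean 3.15 CPM, ratio 3.0016) and GSMG0028802 (20.7 CPM, ratio 3.0049) both had Scnn cortex as the next group, and Scnn replicate 2 alone held 20.3 CPM of the latter. Just outside, GSMG0018638 (38.1 CPM) had a ratio of 2.9966 to SST hippocampus and GSMG0024861 (1.35 CPM) a ratio of 2.9874 to Scnn cortex.

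How many features the rule kept depended on the scaling. The trimmed-mean (TMM) factors, which correct library sizes for composition, averaged 1.19 in VIP cortex (1.14 to 1.24) and 0.912 to 1.02 in the other groups. With plain CPM the median log2 ratio of VIP over the mean of the other groups was 0.12 over the 14804 features, and with TMM-scaled CPM it was -0.17. On TMM-scaled CPM the rule kept 164 features, all of them among the 290. Applied to the other groups on plain CPM, the same rule kept 133 features for PV cortex, 87 for Grik hippocampus, 67 for Scnn cortex, 42 for CamK cortex, 35 for SST cortex, 35 for SST hippocampus and 24 for CamK hippocampus. PV cortex and Grik hippocampus then kept 143 and 106 on TMM-scaled CPM, closer to the 164 of VIP cortex.

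The VIP libraries did not agree equally well on all members. For 50 of the 290 (17.2%) the highest VIP library was at least 2-fold above the lowest, against 5.12% of the 14804 features. Replicate 3 was the highest library for 42 of these 50, and for 72.3% of the 758 such features among the 14804. The 50 lay nearer the limit: 46 had a ratio under 5 and 2 a ratio of at least 10, against 148 and 36 of the 240 steadier features. Scnn cortex was the next group for 39 of the 50 and for 85 of the 240.

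By the coefficient of variation over the VIP libraries, the most uneven was GSMG0032384, with 2.13, 14.1, 28.8 and 2.13 CPM in VIP cortex. Both low VIP libraries were below the highest library elsewhere, 4.43 CPM in SST hippocampus replicate 3. GSMG0041515 followed with 25.1, 61.1, 126 and 37 CPM, and its lowest VIP library was barely above the 24.7 CPM of Scnn cortex replicate 3.

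GSMG0041515 and GSMG0041514 belong to the longest run of neighbouring identifiers in the set, 8 members within a range of 10 features. All 8 had VIP libraries at least 2-fold apart, and all 8 had Scnn cortex as the next group. Their summed level was 3051, 5466, 11111 and 3840 CPM in VIP cortex, 894 to 2345 CPM in Scnn cortex and 374 to 1593 CPM in PV cortex, so that replicate 3 was again highest. The other groups were lower, with means of 532 CPM in SST cortex, 354 CPM in SST hippocampus and 223 CPM in CamK cortex. CamK and Grik hippocampus were lowest, at 105 and 102 CPM. What neighbouring identifiers share is not given in the sources used here. Without VIP replicate 3 the rule kept 257 features, 237 of them among the 290: 216 of the 240 steadier features, 21 of the 50 uneven ones, and 1 of the 8 in the run.

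Summed over all 290, the set held 23642, 27486, 32120 and 26809 CPM in VIP replicates 1 to 4, a mean of 27514 ± 3498 (SD, n = 4), or 2.75% of the counts. In other groups the sum averaged from 1251 CPM in CamK hippocampus to 3181 CPM in Scnn cortex. The 240 steadier features summed to 18170, 17388, 14863 and 17543 CPM in VIP cortex (16991 ± 1458, SD, n = 4) and to group means of 817 CPM (PV cortex) to 1997 CPM (SST cortex) elsewhere. The 50 uneven ones summed to 5472, 10098, 17256 and 9266 CPM in VIP cortex. By these sums, replicate 3 was therefore the highest VIP library for the uneven features and the lowest for the steady ones. Counted by feature, it was the highest VIP library for 54 of the 240 steadier features, against 44 for replicate 2. Among the other groups the order changed too, since Scnn cortex led on all 290 and SST cortex led on the 240.

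**Figure D2:**
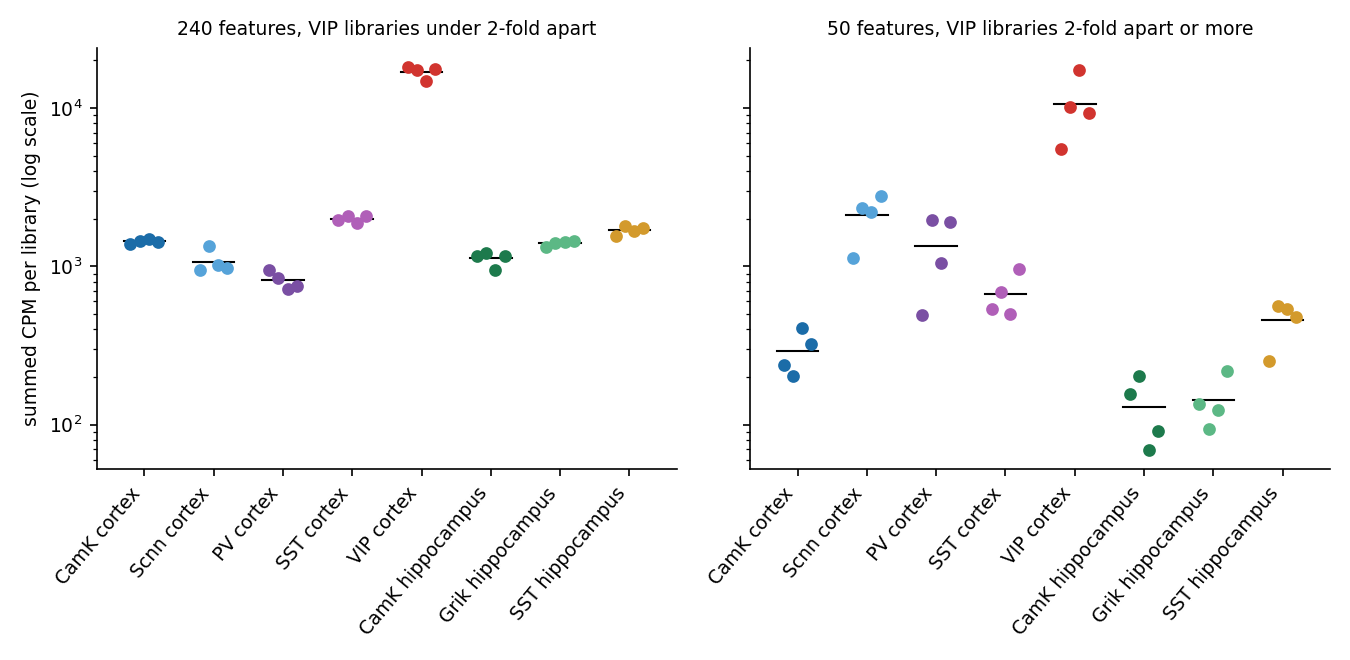
Summed CPM of the VIP-enriched features in each library (points, log scale) with group means (lines), for the 240 features whose VIP libraries lie under 2-fold apart (left) and the 50 others (right). On the left the VIP libraries lie between 14863 and 18170 CPM. On the right they spread from 5472 to 17256 CPM, and Scnn and PV cortex come nearest.

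The group next in level was most often Scnn cortex, for 124 of the 290 (42.8%). Scnn cortex was also the next group for 32.4% of the 3755 features that were highest in VIP cortex by less than 3-fold, so its place was not confined to the set. SST hippocampus came next for 41 features, SST cortex for 37, PV cortex and Grik hippocampus for 28 each, CamK cortex for 18 and CamK hippocampus for 14. Of the 38 features with a ratio of at least 10, Scnn cortex was next for 9, PV cortex for 8 and SST hippocampus for 7. The ratio of VIP to each group was also taken per feature, and its median over the 290 was 6.34 for Scnn cortex, 8.67 for SST hippocampus, 10.5 for SST cortex and 10.6 for PV cortex. That median was 17.9 for Grik hippocampus, and 20.1 and 20.8 for CamK of cortex and hippocampus. Against the highest cortical group, which never shares the title series, the median ratio was 4.39, and against the highest hippocampal group, which always does, it was 7.

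Scnn replicate 2 stood apart in these features. It was the highest Scnn library for 83 of the 124 (66.9%), and at least 2-fold above each other Scnn library for 39 of them (31.5%). Among the 1216 features highest in VIP by less than 3-fold and next in Scnn cortex, these shares were 49.3% and 14.2%. Without this library Scnn cortex was next for 88 of the 290 (30.3%, against 29.5% of the 3755) and SST hippocampus for 62, and the median ratio of VIP to Scnn was 8.64. By group medians Scnn cortex was next for 101. The rule itself kept 430 features without Scnn replicate 2, with 287 of the 290 among them. With medians in place of means it kept 388, which included 262 of the 290 and 2 of the 8 in the run.

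What the rule left undetermined was how the VIP-enriched features differed among the other 7 groups, since it only caps their means. This was tested on the 28 libraries without VIP cortex, with edgeR's quasi-likelihood test fitted to 23285 features and Benjamini-Hochberg adjustment over all of them. Calls required a difference of at least 2-fold and an adjusted p below 0.05. Of the 290, 279 had enough counts to be tested and the other 11 had a median VIP level of 1.77 CPM. A member low in most groups enters the test through a group in which it is higher, so shares among the tested members are given beside those of features at a like level. At least 1 of the 7 comparisons called 252 of the 279 (90.3%), against 52% of all features tested. Under 1 CPM on average over the 28 libraries the share was 86.5% of 163 members against 68.1% of such features, and at 1 CPM or more it was 95.7% of 116 members against 42.2%.

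**Figure D3:**
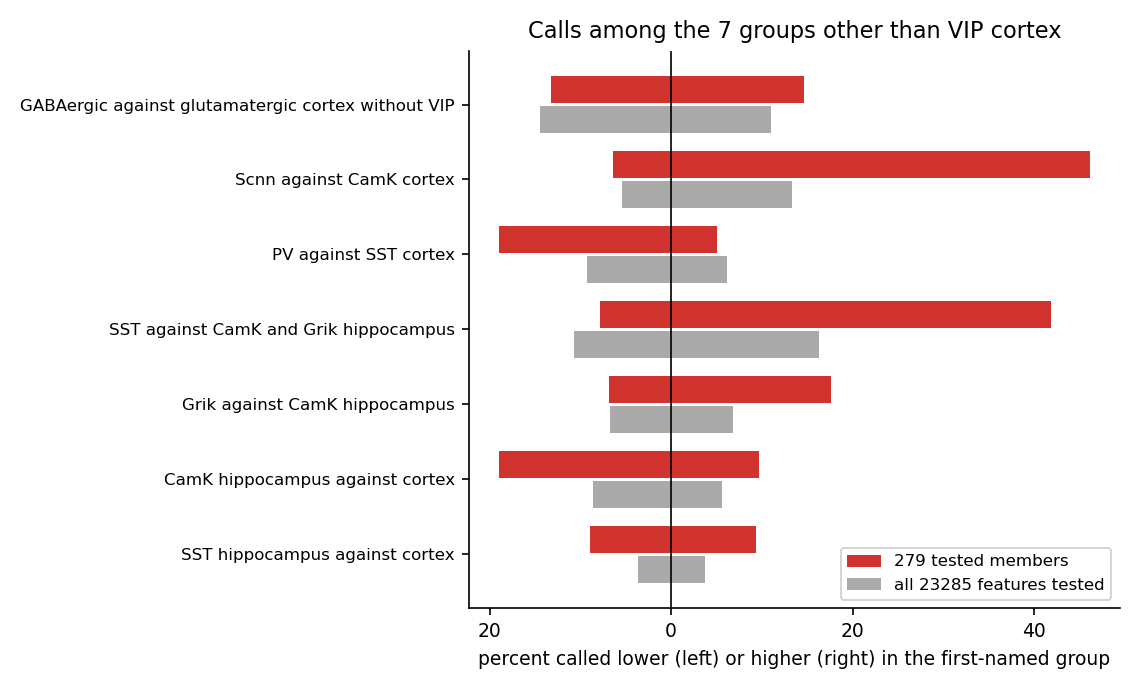
Percent of features called higher (right) or lower (left) in the first-named group of each of 7 comparisons that leave out VIP cortex, for the 279 tested members (red) and all 23285 features (grey). The largest gaps between members and all features are for Scnn against CamK cortex (46.2% against 13.3% higher) and for SST against the other hippocampal groups (41.9% against 16.3%).

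Scnn cortex against CamK cortex, both excitatory by name, both from cortex and from 1 title series, gave the highest share of members called in 1 direction among the 7 comparisons. Of the 279 tested members, 129 were higher in Scnn (46.2%, or 44.5% of all 290) and 18 were lower (6.45%), while among all features tested 13.3% were higher and 5.4% lower. The median log2 difference was 1.22 for the members and 0.04 for all features. The lean was present at both levels: of members averaging under 1 CPM over the 28 libraries 49.1% were higher against 23% of such features, and at 1 CPM or more 42.2% against 7.41%. Without Scnn replicate 2, 97 members were higher and 21 lower. The shares of all features in that refit are not given here, so the size of its lean cannot be judged. Of the 50 uneven features 39 were higher in Scnn, and of the 229 steadier ones tested 90 were (39.3%). Among members chosen on TMM-scaled CPM the share was 37.3%, and among those chosen without VIP replicate 3 it was 35.2%.

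Among members lower in Scnn, GSMG0029073 stood at 84.8, 88.8, 84.8 and 81 CPM in CamK cortex and at 7.67, 15.8, 8.41 and 9.34 CPM in Scnn cortex. The groups were well apart, with a log2 difference of -3.04 (SE 0.17, edgeR adjusted p = 1.09e-13). GSMG0006564 held 23.9 to 25.7 CPM in CamK and 3.29 to 5.01 CPM in Scnn cortex (log2 -2.58, SE 0.22, edgeR adjusted p = 1.71e-10). In VIP cortex, where the rule sets the higher level, the libraries of these features held 322 to 431 CPM and 193 to 257 CPM.

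Of the 129 members higher in Scnn, 60 averaged at least 1 CPM there and had no overlap with CamK cortex. Of these, 6 averaged at least 100 CPM, among them GSMG0041514. No like share of all features is given here, so these counts only describe the pool from which features were named. The 2 with the largest differences were low in both groups. GSMG0008534 held 0.885, 2.29, 0.772 and 2.26 CPM in Scnn cortex and 0 to 0.0951 CPM in CamK cortex, the latter 30 counts over 4 libraries. Its log2 difference was 4.45 (SE 0.92, edgeR adjusted p = 3.68e-04), and in VIP cortex it stood at 5.89 to 9.84 CPM. For GSMG0032529 the Scnn libraries held 0.276, 5.84, 0.803 and 0.224 CPM and the CamK libraries 2, 2, 20 and 2 counts, and the log2 difference was 4.90 (SE 0.92, edgeR adjusted p = 1.14e-04). That value leaned on single libraries: it was 2.74 without Scnn replicate 2 and 6.53 without CamK cortex replicate 3, with adjusted p-values of 0.00274 and 3.44e-05.

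The pair of features GSMG0038934 and GSMG0023431, which are not in the set and were singled out after their values were seen, took large shares of the Scnn and VIP libraries, namely 4.57, 13, 2.56 and 6.78% of the counts in Scnn cortex and 5.26, 3.63, 4.53 and 6.73% in VIP cortex. In CamK cortex they took 0.178 to 0.36%, in PV cortex 0.958 to 1.9% and in SST cortex 0.533 to 2.27%. SST hippocampus held 3.46, 2.63, 1.34 and 2.54%, against 0.0938 to 0.186% in CamK and 0.317 to 0.538% in Grik hippocampus. The part of these in the Scnn lean, or in the SST lean of hippocampus described next, was not tested.

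SST hippocampus against the CamK and Grik groups of hippocampus, all of 1 title series, gave a similar lean toward the inhibitory population. Of the tested members, 117 were higher in SST (41.9%) and 22 lower (7.89%), beside 16.3% and 10.7% of all features. The median log2 difference was 0.89 against 0.07. Under 1 CPM the share higher was 36.2% against 23.9% of such features, and at 1 CPM or more 50% against 11.7%. In the 240 steadier features 87 of 229 tested were higher, and among members chosen without VIP replicate 3 the share was 35.2%.

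GSMG0043000 showed the largest difference, with 13.2, 18.2, 15.7 and 12 CPM in SST hippocampus and 0 to 0.27 CPM over the 8 CamK and Grik libraries (log2 7.63, SE 0.37, edgeR adjusted p = 1.08e-16). It was lower in SST cortex, with a mean of 3.02 CPM, and stood at 85.5 to 120 CPM in VIP cortex. GSMG0032712 held 109 to 127 CPM in SST hippocampus and 0.997 to 5.59 CPM in the 8 excitatory libraries, with a median of 2.97 CPM (log2 5.21, SE 0.27, edgeR adjusted p = 4.29e-14). In the opposite direction, GSMG0013626 held 9.65 to 13.3 CPM in SST hippocampus and 79.5 to 118 CPM, median 99.1, in the excitatory groups (log2 -3.23, SE 0.11, edgeR adjusted p = 1.89e-20). GSMG0029296 held 4.23 to 12 CPM and 47.1 to 99.1 CPM on the same sides (log2 -3.33, SE 0.35, edgeR adjusted p = 1.80e-08). None of the 4 features had overlapping libraries in this comparison, which was a condition for naming them.

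In cortex the comparison of inhibitory with excitatory groups split the members about evenly. PV and SST together against CamK and Scnn together gave 41 members higher (14.7%) and 37 lower (13.3%), beside 11% and 14.5% of all features. The median log2 difference was 0.06 for members and -0.01 for all features. At 1 CPM or more the shares were 19.8% higher and 17.2% lower, against 10% and 13.5% of such features. Under 1 CPM, where 163 of the 279 lie, they were 11% and 10.4%, below the 12.6% and 16.1% of such features. The difference between the cortical and the hippocampal result was not tested, and the excitatory side of the cortical comparison includes Scnn.

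GSMG0032712 was again among those higher in the inhibitory groups, with 83.2 to 110 CPM over the 8 PV and SST libraries (median 95.9) and 0.963 to 9.44 CPM over the 8 CamK and Scnn libraries (median 4.37). The log2 difference was 4.48 (SE 0.24, edgeR adjusted p = 7.92e-14). The VIP libraries of this feature held 452, 449, 350 and 447 CPM, and the rule itself makes VIP the highest group. Outside VIP it was high in each inhibitory group and low in each excitatory one. GSMG0033900 was higher on average too (log2 3.92, SE 0.24, edgeR adjusted p = 2.56e-14), but unevenly, with 23.1 to 32.5 CPM in PV cortex and 1.73 to 3.45 CPM in SST cortex over at most 0.816 CPM in CamK and Scnn.

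Some VIP-enriched features were shared with the excitatory side instead. GSMG0018664 held 15.3 to 31.3 CPM over the CamK and Scnn libraries (median 20.2) and 1.09 to 4.43 CPM over the PV and SST libraries (median 2.14), with a log2 difference of -3.37 (SE 0.16, edgeR adjusted p = 2.80e-17). It reached 97.8 to 125 CPM in VIP cortex and reached at most 2.3 CPM in the hippocampal groups. GSMG0037342 held 11.5 to 16.5 CPM and 0.3 to 2.5 CPM on the same sides (log2 -3.32, SE 0.16, edgeR adjusted p = 8.80e-17), at 47.1 to 65.5 CPM in VIP cortex.

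Between the other inhibitory groups of cortex, members were more often lower in PV. PV against SST cortex gave 14 members higher in PV (5.02%) and 53 lower (19%), where all features gave 6.11% and 9.27%. At 1 CPM or more 29.3% of members were lower in PV and 4.31% higher, against 9.71% and 5.87% of such features. Among the 163 members under 1 CPM the shares, 11.7% lower and 5.52% higher, lay nearer to the 8.56% and 6.49% of such features. The median log2 difference was 0.11 for the members and 0.04 for all features, which is opposite in sign to the balance of the calls, and it was 0.80 for the 50 uneven features and -0.05 for the steadier ones.

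The widest differences were toward SST. GSMG0038910, described above, held 107 to 136 CPM in SST cortex and 1.13 to 1.72 CPM in PV cortex (log2 -6.44, SE 0.34, edgeR adjusted p = 1.97e-13). GSMG0025199 held 64.2, 72.9, 42.4 and 62.9 CPM in SST cortex and 1.19, 0.777, 0.425 and 0.73 CPM in PV cortex (log2 -6.23, SE 0.30, edgeR adjusted p = 2.37e-15), beneath 419 to 594 CPM in VIP cortex. Toward PV, GSMG0033900 differed by 3.61 on the log2 scale (SE 0.32, edgeR adjusted p = 3.14e-10), and GSMG0020654 held 4.08 to 6.43 CPM in PV and 0.383 to 1.35 CPM in SST (log2 2.96, SE 0.71, edgeR adjusted p = 0.00144).

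Within the excitatory groups of hippocampus, 49 members were higher in Grik than in CamK (17.6%) and 19 were lower (6.81%), beside 6.86% and 6.73% of all features. The median log2 difference was 0.24 against 0. The share higher was 11.7% against 7.8% of features under 1 CPM, and 25.9% against 6.29% at 1 CPM or more. GSMG0003738, the most abundant of the set in VIP cortex, held 9.67, 15.8, 9.13 and 22.3 CPM in Grik and 0.161 to 0.651 CPM in CamK hippocampus (log2 4.99, SE 0.50, edgeR adjusted p = 1.45e-08). GSMG0038910 held 263 to 277 CPM in Grik and 6.11 to 14 CPM in CamK (log2 4.72, SE 0.31, edgeR adjusted p = 1.63e-11). Each Grik library was above each CamK library in both features, which was again a condition for naming them.

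In the other direction GSMG0039553 held 7.78, 6.19, 8.07 and 8.46 CPM in CamK hippocampus and 0.0769 to 0.625 CPM in Grik (log2 -4.49, SE 0.44, edgeR adjusted p = 2.25e-09), with 19.7 to 26.2 CPM in VIP cortex. GSMG0040627 was lower throughout, with 0.731 to 2.35 CPM in CamK and 0.108 to 0.271 CPM in Grik (log2 -2.75, SE 0.64, edgeR adjusted p = 0.0012).

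**Figure D4:**
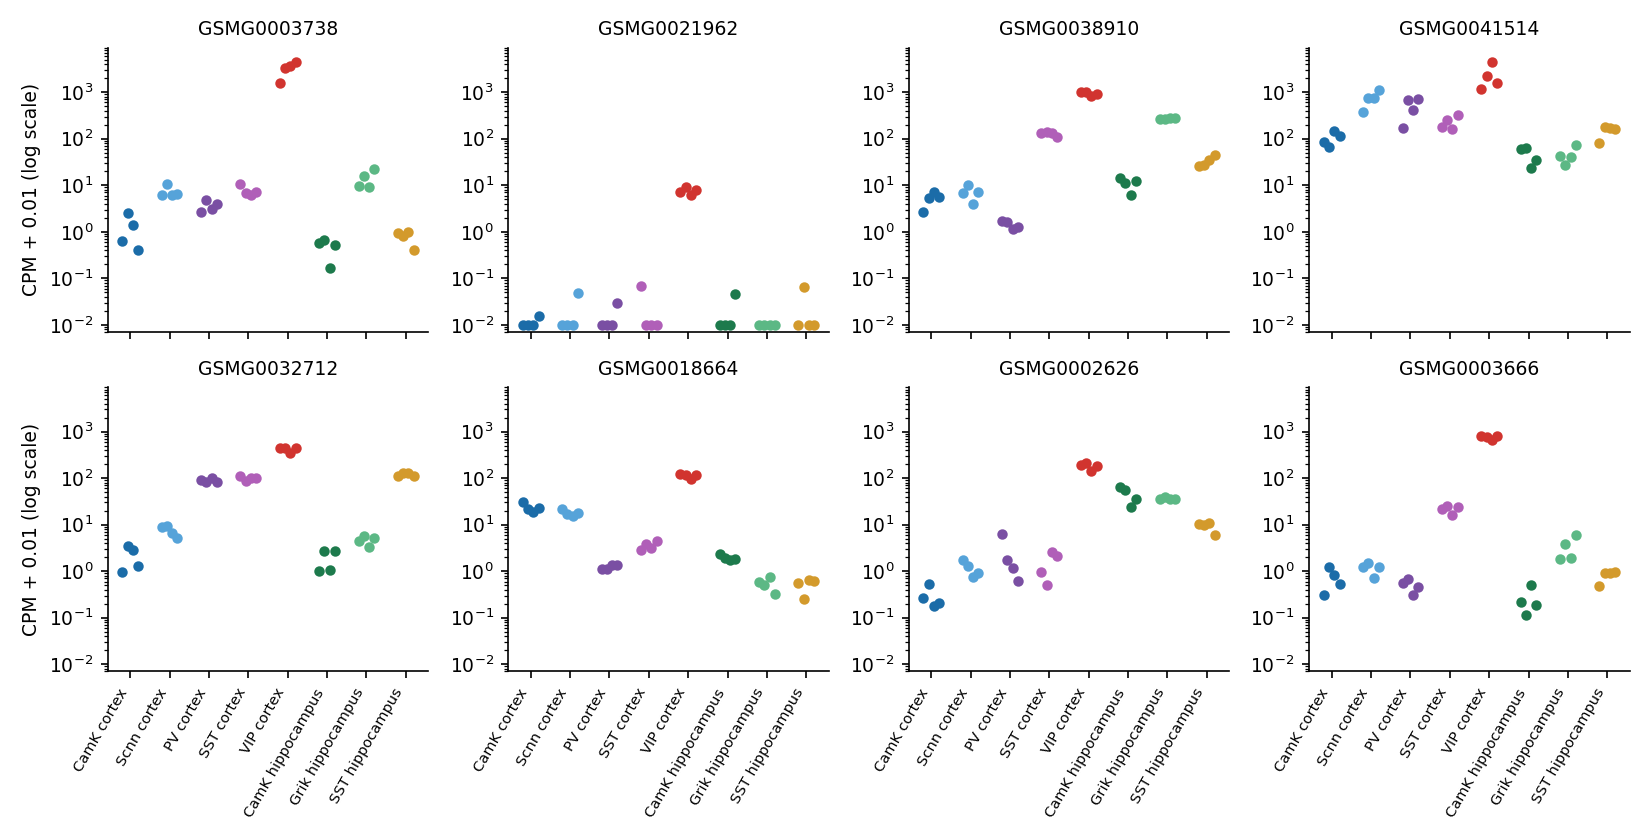
CPM + 0.01 in each library (points, log scale) of 8 named members, by group. Outside VIP cortex, some are highest in inhibitory groups (GSMG0032712) and others in excitatory cortical groups (GSMG0018664) or in CamK and Grik hippocampus (GSMG0002626). GSMG0038910 is highest in Grik hippocampus (mean 270 CPM) and next in SST cortex (mean 128 CPM). GSMG0021962 is at 0 in 22 of the 28 other libraries.

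Comparisons of region set a hippocampal group with W titles against a cortical group without, so in them the effect of region cannot be told apart from that of the title series. In CamK, 27 members were higher in hippocampus (9.68%) and 53 lower (19%), beside 5.63% and 8.58% of all features. The median log2 difference was -0.08 for members and 0 for all features. In SST, 26 were higher in hippocampus (9.32%) and 25 lower (8.96%), beside 3.74% and 3.64%, with a median of 0.20 against 0. At 1 CPM or more the SST shares were 17.2% and 13.8%, against 3.33% and 3.58%, whereas under 1 CPM they were 3.68% and 5.52%, against 4.43% and 3.74%. The members' excess in SST was thus seen at the higher level, while for CamK 12.9% of the lower members and 27.6% of the higher ones were lower in hippocampus, against 9.11% and 8.25%.

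In CamK, GSMG0002626 held 64.3, 56.5, 23.4 and 34.7 CPM in hippocampus and 0.171 to 0.511 CPM in cortex (log2 7.23, SE 0.70, edgeR adjusted p = 2.34e-08). It was at a similar level in Grik hippocampus (34.7 to 40.2 CPM), lower in SST hippocampus (6.13 to 10.6 CPM), and 143 to 207 CPM in VIP cortex. GSMG0001223 likewise had CamK hippocampus as the group next to VIP cortex. It held 4.06 to 7.93 CPM in CamK hippocampus and 0.0108 to 0.107 CPM in CamK cortex (log2 7.08, SE 0.58, edgeR adjusted p = 8.50e-11). Without CamK cortex replicate 2, its highest there, the difference was 8.12. Higher in cortex were GSMG0006564, with 23.9 to 25.7 CPM against 0.81 to 1.48 CPM (log2 -4.34, SE 0.24, edgeR adjusted p = 2.37e-14), and GSMG0025199, with 2.84 to 5.37 CPM against 0.152 to 0.379 CPM (log2 -4.16, SE 0.31, edgeR adjusted p = 2.43e-11).

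In SST, GSMG0003666 held 21.2, 25, 16.2 and 23.6 CPM in cortex and 0.479, 0.887, 0.919 and 0.963 CPM in hippocampus (log2 -4.75, SE 0.46, edgeR adjusted p = 2.50e-08). It stood at 643 to 814 CPM in VIP cortex and 1.84 to 5.92 CPM in Grik hippocampus. GSMG0003738 was likewise lower in SST hippocampus, 0.402 to 0.995 CPM against 6.23 to 10.4 CPM (log2 -3.29, SE 0.46, edgeR adjusted p = 7.47e-06). Higher in SST hippocampus were GSMG0040719, with 8.05 to 13.4 CPM against 1.11 to 1.8 CPM (log2 2.91, SE 0.32, edgeR adjusted p = 7.42e-08), and GSMG0004034, with 6.87 to 11.6 CPM against 1.12 to 1.66 CPM (log2 2.90, SE 0.34, edgeR adjusted p = 2.10e-07).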

How the data were processed

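Ribosome-associated RNA from 32 libraries was made into stranded poly(A) libraries from 50 ng of RNA, per the labels' protocols. The values are expected counts per feature, as deposited by the authors; they need not be whole (20.1% of those above 0 were, within 1e-06). The submitters' processing notes name featureCounts, SAMtools, Picard and FastQC, and GRCm38 as the build. The aligner, the annotation, and how strand and shared reads were treated are details not given in the sources used here, so values of overlapping, antisense or near-identical features are uncertain. The unit of the deposited feature length is not stated either; it was taken as bases. Another 12 columns matched no sample and were not used.

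CPM is the count over the library total. Expected counts were rounded and fitted with edgeR 4.0.16 (R 4.3.3; filterByExpr, TMM, robust quasi-likelihood, no block) on the 28 libraries without VIP cortex, with 7 contrasts and 1 interaction. Log2 differences are on TMM-scaled counts, and an SE is the log2 difference over the square root of F. The script was tested on simulated data. Alternatives were DESeq2 1.42.0 and its size factors, other filters, all 32 libraries, a replicate block, and leaving out each replicate. Shares by level, the other lists of members, and results without Scnn replicate 2 were added after seeing the data. The members and lists were chosen with earlier results of these data known. Named features were the 2 largest differences in each direction among members called, where the libraries of both sides did not overlap and the higher side had a group mean of 1 CPM or more; for the set, those with the highest level, the largest and smallest ratio, the largest variation, and the nearest outside. Marker lists had been drawn up but could not be looked up without gene names.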

Additional observations from a re-analysis of the deposited data

Results flagged for a closer look

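Among the named members, 83 groups of 4 libraries were searched for a library far from the other 3, and 8 held one; chance alone flags about 1 group in 20. GSMG0032529 had 2 of them: Scnn cortex replicate 2 at 5.84 CPM beside 0.224 to 0.803 CPM, and CamK cortex replicate 3 at 0.19 CPM beside 0.0186 to 0.019 CPM. GSMG0008534 was at 0 CPM in CamK cortex replicate 1 and at 0.0934 to 0.0951 CPM in the others. GSMG0003666 was at 0.479 CPM in SST hippocampus replicate 1 and at 0.887 to 0.963 CPM in the others. GSMG0004034 was at 1.66 CPM in SST cortex replicate 3, beside 1.12 to 1.16 CPM. GSMG0006564 was at 23.9 CPM in CamK cortex replicate 2, beside 25.4 to 25.7 CPM. GSMG0013626 was at 118 CPM in CamK hippocampus replicate 2, beside 107 to 109 CPM. GSMG0037342 was at 11.5 CPM in Scnn cortex replicate 4, beside 13.7 to 14.2 CPM.

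The difference between hippocampus and cortex was not the same in CamK and SST for the members named for region, by an interaction term in the edgeR fit adjusted over all features. These members had been named for a large difference in one of the populations, so the size of the interaction partly follows from that choice. The difference of SST minus CamK was -4.63 on the log2 scale for GSMG0002626 (SE 0.84, edgeR adjusted p = 2.53e-04), -5.33 for GSMG0001223 (SE 0.73, adjusted p = 2.59e-06), 2.99 for GSMG0006564 (SE 0.30, adjusted p = 1.36e-08) and 2.31 for GSMG0025199 (SE 0.38, adjusted p = 5.19e-05). For these the regional difference had the same sign in both populations and was larger in CamK. It was 1.88 for GSMG0040719 (SE 0.47, edgeR adjusted p = 0.00343), 2.35 for GSMG0004034 (SE 0.56, adjusted p = 0.0025), -3.22 for GSMG0003666 (SE 0.63, adjusted p = 4.27e-04) and -1.88 for GSMG0003738 (SE 0.63, adjusted p = 0.0316), where the larger difference was in SST. The value of GSMG0003738 missed the threshold without a filter (adjusted p = 0.0663), in the fit of all 32 libraries (adjusted p = 0.0615) and when any 1 of 8 libraries was left out, with an adjusted p of up to 0.0762 without CamK hippocampus replicate 3.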

How the results depend on the processing

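The number of features kept followed the rule's own settings: 812 at 2-fold, 96 at 5-fold, 147 at 5 CPM in the VIP libraries and 164 on TMM-scaled CPM. On that scale the 290 summed to 23098 CPM in VIP cortex. Leaving out each VIP replicate, or Scnn replicate 2 (chosen after seeing the data), gave 257 to 430 features, and leaving out each VIP replicate gave sums of 25979 to 28805 CPM. For Scnn against CamK cortex a filter of 1 CPM in at least 4 libraries, under which 150 members were tested, left 82 calls. The main fit gave 147 calls among 279 tested members, so the drop went with fewer members tested. No other count of calls moved by over 1.5 times under the alternatives run. Leaving out each replicate gave 75 to 83 calls for the inhibitory against the excitatory groups of cortex, 118 to 144 for Scnn against CamK, 60 to 74 for PV against SST, 126 to 140 for SST against CamK and Grik, 63 to 72 for Grik against CamK, 62 to 74 for CamK by region and 39 to 54 for SST by region. With a replicate block the calls were 78, 130, 70, 116, 72, 80 and 54 in the same order. The shares of all features in these refits are not given here, so these counts cannot show how far any lean holds. The correlation of deviations between same-numbered libraries was -0.0565 to 0.142, with a median of 0.0342. It was over 0.1 in 4 of 32 pairs, all among Scnn, PV and SST cortex. Between libraries of other numbers it was over 0.1 in 0 of 112 pairs (median -0.00377, lowest -0.152, highest 0.0988). Deviations were taken from group means, which pushes other-numbered pairs down where same-numbered pairs are up. The contrast between the kinds of pair is thus partly built in. Same-numbered libraries of Scnn, PV and SST cortex may still share some variation, which the main fit without a block does not model. The 28 log2 differences of named members kept their direction and call in all 439 refits. With the replicate block GSMG0032529 was at 4.04 and GSMG0039553 at -5.19. Features near 0 in a group, such as GSMG0021962, are limited by depth, and their ratios carry wide counting error.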
